A study of Mus musculus with 4 samples.

Results

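Fc gamma and Fc epsilon receptors were examined in intraepithelial lymphocytes of the gamma delta type, T cells of the gut lining, sorted from mouse colon. The genes were taken by name: every probe set that the platform table pairs with Fcgr1, Fcgr2b, Fcgr3, Fcgr4, Fcer1g or Fcgrt alone. That gave 11 of the 45101 probe sets on the array, for 6 of the 18193 genes that carry a single symbol. In the DSS group, conventionally raised C57b/6 mice received 2% dextran sulfate sodium (DSS), which damages the epithelium of the colon, for 5 days and were then returned to plain water for 3 days. In the untreated group, mice of the same strain and housing received nothing. Each group had 2 samples, each on 1 array. The labels give no age and no sort gate, and do not say whether replicates came from separate animals or pools, so the p-values reflect the spread of these samples alone, and that spread may be technical.

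Fc receptors let cells sense antibody through its constant part. Fcgr1, the high-affinity IgG receptor, and the lower-affinity activating receptors Fcgr3 and Fcgr4 bind the ligand but signal through a separate chain, the common gamma chain encoded by Fcer1g, whose tyrosine motif recruits Syk. Fcgr2b is the inhibitory IgG receptor: its own tail carries a tyrosine motif that recruits the lipid phosphatase encoded by Inpp5d. Fcgrt encodes the neonatal receptor, which pairs with beta-2 microglobulin and carries IgG through and back out of cells. Macrophages express the activating and inhibitory IgG receptors together, B cells express Fcgr2b, and NK cells express Fcgr3. Fcer1g is also expressed by intraepithelial T cells, where its product can stand in for the zeta chain of the antigen receptor. The Fc epsilon receptor enters here only through this shared chain.

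In the RefSeq gene table (GRCm38.p6), Fcgr2b, Fcgr4 and Fcgr3 lie next to each other on chromosome 1, and Fcer1g lies on the same chromosome. The promoters of the 3 activating receptor genes are shown because their probe sets were higher on both DSS arrays, and because each holds the core letters bound by the myeloid factor PU.1 (GAGGAA, searched on both strands). The window runs from 250 bases before to 50 bases after the annotated start, and the sequences come from RefSeq on GRCm38.p6. Capitals mark the match, which in each case reads TTCCTC on the strand of the gene.
Fcgr4, chr1:171018676-171018975, plus strand: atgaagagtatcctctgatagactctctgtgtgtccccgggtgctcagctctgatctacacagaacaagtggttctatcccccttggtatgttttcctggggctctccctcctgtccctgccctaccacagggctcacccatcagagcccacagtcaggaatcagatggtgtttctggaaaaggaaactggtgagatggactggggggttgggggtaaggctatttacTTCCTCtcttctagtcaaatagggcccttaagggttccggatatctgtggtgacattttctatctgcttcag
Fcgr3, chr1:171059345-171059644, minus strand: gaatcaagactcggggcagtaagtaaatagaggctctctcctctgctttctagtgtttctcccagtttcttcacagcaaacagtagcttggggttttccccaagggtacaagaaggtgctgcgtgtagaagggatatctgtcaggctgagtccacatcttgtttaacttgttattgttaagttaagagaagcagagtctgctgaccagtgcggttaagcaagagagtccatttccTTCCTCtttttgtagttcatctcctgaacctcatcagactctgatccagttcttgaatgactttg
Fcgr1, chr3:96293920-96294219, minus strand: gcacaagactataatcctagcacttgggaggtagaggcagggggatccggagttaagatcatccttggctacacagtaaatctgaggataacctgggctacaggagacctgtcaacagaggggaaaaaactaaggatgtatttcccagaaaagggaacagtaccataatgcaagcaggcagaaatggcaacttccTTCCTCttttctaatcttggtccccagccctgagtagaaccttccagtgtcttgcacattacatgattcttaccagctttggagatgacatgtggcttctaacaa
The match began 22 bases before the start in Fcgr4, 15 bases before it in Fcgr3 and 55 bases before it in Fcgr1. A second annotated start of Fcgr3, whose window overlaps the first, held the same match, 6 bases before that start. Thus 3 of these 6 genes held the letters, in 4 of 7 promoters with the 1 Fcgr3 match counted for both starts. The promoters of Fcgr2b, Fcer1g and Fcgrt did not hold them. Of all 32851 promoters of this length in the table, 28.3% held them. A match is a description of these letters and not a binding site, and no match says only that these letters are absent from this window. Spi1, which encodes PU.1, had signals of 216.8 and 212.6 on the DSS arrays, against 450.2 and 131.4 on the untreated arrays, so the groups overlapped.

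Signals are linear intensities scaled by the authors to the same trimmed mean on every array. The array medians were 157.1 and 163.3 in DSS samples and 193.8 and 213.9 in untreated samples. A probe set was kept if it lay above its array's median on at least 2 of the 4 arrays, and the brightest kept probe set stood for its gene. The correlation across genes, which do not count as independent replicates, was 0.92 between the DSS arrays and 0.794 between the untreated arrays. The untreated arrays thus differed from each other more than from the DSS arrays, with which they correlated at 0.817 to 0.854. Cd3e, a chain of the T cell receptor complex, had 10288 and 11548 in DSS samples and 7981 and 18964 in untreated samples. Of 19 markers of gamma delta T cells and intraepithelial lymphocytes, 16 were tested, 2 (12.5%) were higher on both DSS arrays, against 17.2% of all 12424 genes tested, and 7 (43.8%) were lower, against 23.8%. Their summed signal was 341992 and 355882 in DSS samples and 665213 and 578389 in untreated samples. Their median log2 difference was -0.37, against -0.07 for all genes, and it was -0.03 with every array scaled to a common median, against 0.25. Limma called 0, and 4 had an unadjusted p under 0.05: Cd8b1, a coreceptor chain (-2.35), the chemokine Ccl5 (-1.48), Itgae, the integrin chain CD103 (-1.20), and the kinase Zap70 (-1.10). The Itgae value came from a probe set that can bind related transcripts. The other Itgae probe set, 1449216_at, went the other way, with 17058 and 11479 in DSS samples, against 9780 and 9720 in untreated samples (0.52). Cd8b1 had 137.4 and 98.6 in DSS samples, below their medians, against 721.5 and 727.3 in untreated samples, and passed the filter through the untreated arrays alone. Of 21 macrophage and dendritic cell markers, 15 were tested and 13 of these, 86.7%, were higher on both DSS arrays, and 0 were lower. Of the 15, C1qc and Mrc1 passed the filter on low values through the DSS arrays alone. Without the filter, 13 of the 20 markers on the array were higher on both DSS arrays, against 14.8% of all 18193 genes. The summed signal of the 15 was 70117 and 97977 in DSS samples and 11918.5 and 6146 in untreated samples, and 7 of them lay at or below the median of untreated replicate 2. In sorted bulk samples, more cells of a type and more RNA per cell cannot be told apart.

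**Figure D1:**
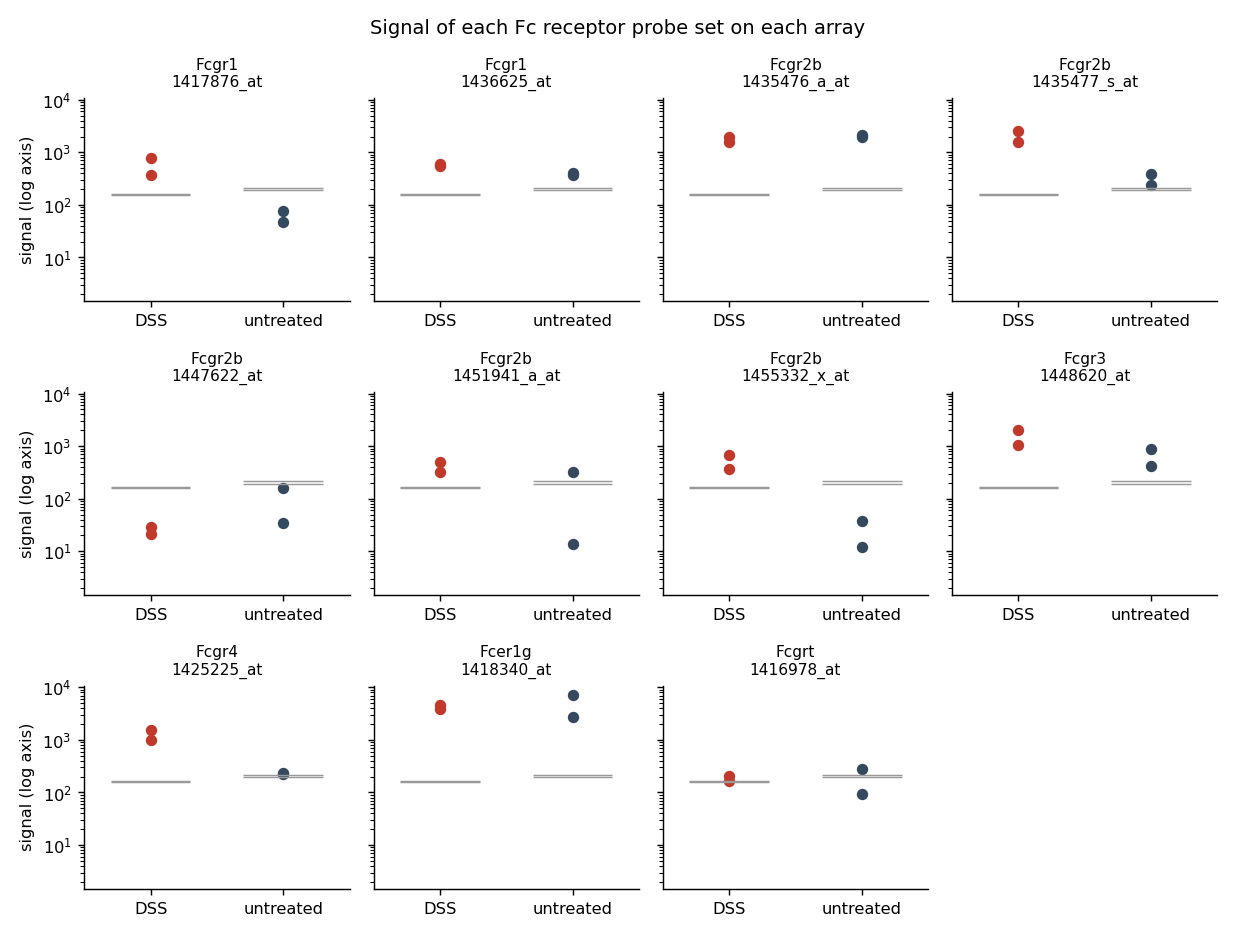
Signal (log axis) of the 11 probe sets of Fc receptor genes on each array; red points are the 2 DSS arrays, dark points the 2 untreated arrays, and grey lines the array medians. The Fcgr4 points lie at 980.0 and 1559.8 in DSS samples, above 220.6 and 236.0 in untreated samples, while the Fcer1g points overlap.

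Fcgr4, an activating receptor, was read by 1 probe set that separated the groups. It had signals of 980.0 and 1559.8 on the DSS arrays, against 220.6 and 236.0 on the untreated arrays. Both DSS values lay at least 4.15-fold above the higher untreated value, and the untreated values sat close to the medians of their arrays. The mean signal was 1269.9 ± 410.0 in DSS samples and 228.3 ± 10.9 in untreated samples (SD, n = 2 each), a ratio of 5.56. On the log2(signal + 32) scale, where differences of dim genes come out too small, the difference of DSS minus untreated was 2.29 ± 0.43 (SE), with a 95% interval of 1.27 to 3.31. It did not pass adjustment over all genes (limma adjusted p = 0.454). With 1 untreated array left out the call changed: the adjusted p was 0.000993 without untreated replicate 1 and 0.00107 without untreated replicate 2, where the lone untreated array is assumed to vary as the DSS arrays do. It was 0.768 without DSS replicate 1 and 0.9999 without DSS replicate 2.

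Fcgr3, the low-affinity activating receptor that NK cells and macrophages share, had 1072.4 and 2048 in DSS samples, against 887.9 and 411.0 in untreated samples. The groups did not overlap, but the lower DSS value was only 1.21-fold above the higher untreated value. The log2 difference was 1.25 ± 0.53, with a 95% interval of -0.01 to 2.51 (limma adjusted p = 0.649). It was 1.77 with an adjusted p of 0.00554 without untreated replicate 1, and 0.72 without untreated replicate 2 (adjusted p = 0.299). Leaving out a DSS array gave 0.79 without DSS replicate 2 and 1.70 without DSS replicate 1. The size of the Fcgr3 difference therefore turned on which array was kept.

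Fcgr1, the high-affinity IgG receptor, was read by 2 probe sets, both higher on both DSS arrays but by different amounts. Probe set 1417876_at had 365.1 and 775.5 in DSS samples, against 48.3 and 75.5 in untreated samples. Its untreated values lay below the array medians, so this probe set passed the filter on low values through the DSS arrays alone. Its log2 difference was 2.61 ± 0.73 in a fit over all 45101 probe sets (limma adjusted p = 0.764). Probe set 1436625_at, the brighter one on average and the one that represents the gene, had 608.9 and 538.6 in DSS samples, against 370.4 and 401.8 in untreated samples. Its log2 difference was 0.53 ± 0.41, with a 95% interval of -0.43 to 1.497 (limma adjusted p = 0.724). The direction was shared and the size was not, and the mean of both probe sets gave 1.57.

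Fcgr2b, the inhibitory receptor, was read by 5 probe sets that did not move together. Probe set 1435476_a_at, which represents the gene because it has the highest mean, had 1596.2 and 1923.0 in DSS samples, against 2149 and 1978.3 in untreated samples. Both DSS values were slightly below both untreated values, with a log2 difference of -0.23 ± 0.38 and a 95% interval of -1.13 to 0.66 (limma adjusted p = 0.87), and under common-median scaling it was 0.11 with overlapping groups. Probe set 1435477_s_at, drawn from the same source sequence in the platform table, had 1581.8 and 2542 in DSS samples, against 237.7 and 387.3 in untreated samples. This was a log2 difference of 2.60 ± 0.45, and its adjusted p of 0.367 over all probe sets was the smallest of the 11. Probe set 1455332_x_at, from that source sequence too, had 368.6 and 674.0 in DSS samples, against 12.1 and 37.3 in untreated samples, and passed the filter through the DSS arrays alone.

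The remaining Fcgr2b probe sets were less clear. Probe set 1451941_a_at had 322.6 and 508.2 in DSS samples, against 316.7 and 13.5 in untreated samples, so 1 untreated array nearly reached the lower DSS value. Probe set 1447622_at stayed below the median of every array and was not kept, with 28.5 and 20.9 in DSS samples, against 33.8 and 161.2 in untreated samples. Names ending in _s_at or _x_at are given to probe sets that may also bind relatives of the gene, and Fcgr2b and Fcgr3 encode closely similar extracellular parts, so values on 1435477_s_at and 1455332_x_at are uncertain as measures of Fcgr2b alone. The mean of the kept probe sets gave a log2 difference of 1.86, opposite in sign to the representative probe set. The direction of Fcgr2b thus depended on the probe set.

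**Figure D2:**
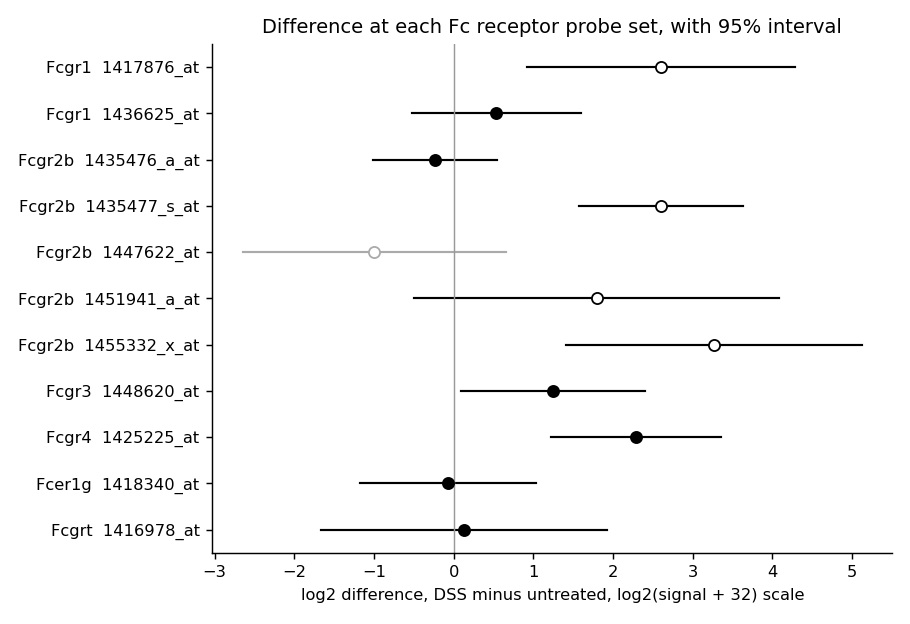
Log2 difference, DSS minus untreated, at each Fc receptor probe set (x axis, log2(signal + 32) scale) with its 95% interval from the limma fit over all probe sets; filled points represent the gene, open points are its other probe sets, and grey marks the probe set not kept. The 5 Fcgr2b points run from -0.995 to 3.27, while Fcer1g and Fcgrt sit near 0.

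Fcer1g, the signalling chain that the activating receptors need, did not separate the groups. Fcer1g had 3907 and 4588 in DSS samples, against 2724 and 7230 in untreated samples. Both DSS values lay between the untreated values. The log2 difference was -0.07 ± 0.52, with a 95% interval of -1.31 to 1.17 (limma adjusted p = 0.974). The direction depended on the array kept: it was -0.77 without untreated replicate 1, 0.63 without untreated replicate 2 and 0.05 without DSS replicate 1. Under common-median scaling it was 0.27, when the median of all genes was 0.25. Whether the difference of Fcgr4 and that of Fcer1g differ from each other was not tested.

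Fcgrt, the neonatal Fc receptor, was dim. Fcgrt had 167.1 and 207.2 in DSS samples, against 282.1 and 94.97 in untreated samples, values that straddle the array medians. The log2 difference was 0.13 ± 0.73, with a 95% interval of -1.59 to 1.84 (limma adjusted p = 0.965). It was 0.78 without untreated replicate 1, -0.53 without untreated replicate 2 and -0.004 without DSS replicate 2. B2m, which encodes its partner beta-2 microglobulin, had 28461 and 30380.7 in DSS samples, against 29507 and 39686 in untreated samples, and those groups overlapped as well. Its dimmer probe set, 1452428_a_at, had 4912 and 5307 in DSS samples, against 8625 and 8008 in untreated samples.

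Over the 6 genes, limma called 0 at an adjusted p under 0.05, as it called 0 of all 12424 genes (0%). These counts rested on the untreated arrays: limma called 2 of the 6, Fcgr3 and Fcgr4, and 1791 of all genes without untreated replicate 1, and Fcgr4 alone of the 6 and 755 of all genes without untreated replicate 2. At an unadjusted p under 0.05 it counted 1 of the 6, Fcgr4, against 7.52% of all genes. Without a test, Fcgr1, Fcgr3 and Fcgr4 had both DSS values above both untreated values, as 17.2% of all genes did, and Fcgr2b was lower on its representative probe set, where 23.8% of all genes were, though not under common-median scaling. Of the 11 probe sets, 7 were higher, against 13.6% of all probe sets, and 2 were lower, both of Fcgr2b, against 25.4%. Limma called 0 of the 11, and 0% of all probe sets, and 5 of the 11 had an unadjusted p under 0.05, against 6.3% of all. The filter kept 10 of the 11, and 2 of these only through the DSS arrays, so the counts over probe sets are a description.

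Most macrophage markers were higher on the DSS arrays, as the activating receptors were, and 7 of the 16 intraepithelial lymphocyte markers were lower. The 2 lymphocyte markers that were higher were Cd3d (0.67) and Cd3g (0.36), chains of the same complex as Cd3e. With only 2 groups, all genes that separate them do so on the same arrays, so this sharing does not link the genes. Csf1r, the growth factor receptor that defines the macrophage lineage, had 33267 and 40991 in DSS samples, against 4342 and 1161.6 in untreated samples. These came from its brightest probe set, at a log2 difference of 4.02, and its other 2 probe sets gave 2.69 and 1.52. Adgre1, the macrophage surface protein F4/80, had 846.3 and 1331 in DSS samples, against 475.3 and 232.4 in untreated samples, a log2 difference of 1.58. C1qb, a complement chain made by macrophages, differed by 4.18, Lyz2, a lysozyme of macrophages and neutrophils, by 5.00, Ly86 by 4.55 and the pore-forming Mpeg1 by 4.18. The 15 tested markers had a median log2 difference of 2.38, against 0.33 for the 6 Fc receptor genes and -0.07 for all genes. It was 1.79 over the 20 markers on the array without the filter, 2.96 without DSS replicate 1 and 1.85 without DSS replicate 2. Between the untreated arrays, 11 of the 15 were higher on replicate 1 than on replicate 2, and Cd68, Itgax, Clec10a and Ly86 were lower. Csf1r was higher there on its brightest probe set and lower on its other 2. The part of macrophage and lymphocyte transcripts in the Fc receptor differences was not tested.

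**Figure D3:**
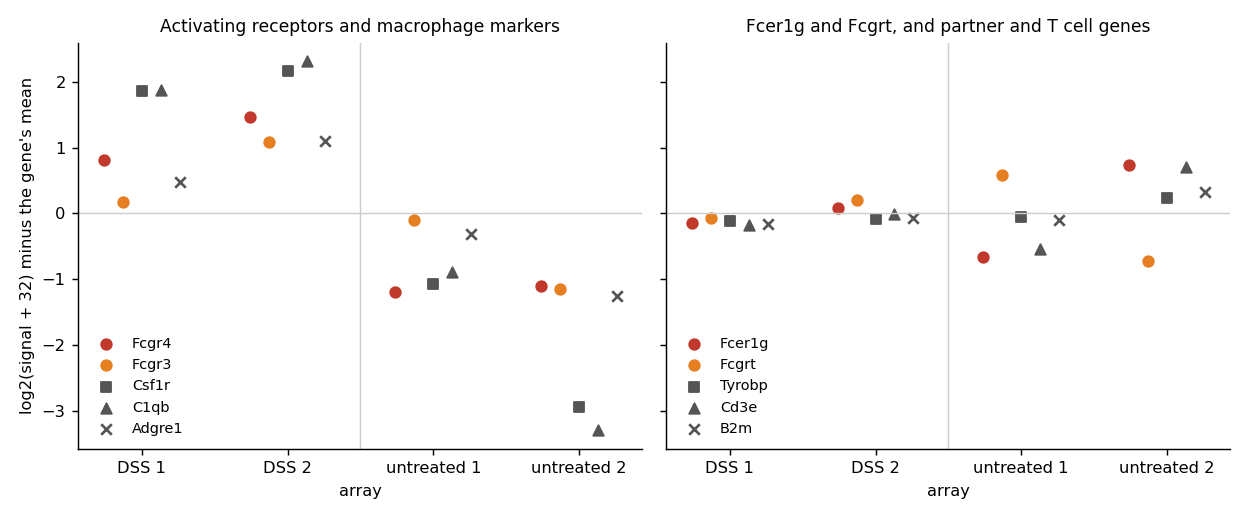
Level of single genes on each array (y axis, log2(signal + 32) minus the gene's mean over the 4 arrays), with Fcgr4, Fcgr3 and the macrophage markers Csf1r, C1qb and Adgre1 on the left and Fcer1g, Fcgrt, Tyrobp, Cd3e and B2m on the right. Every gene on the left has both DSS points above both untreated points, and on the right the DSS points lie close together while most untreated points spread.

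The marker lists of other cells that could be in the sorts were short, and their counts are read against 17.2% of all genes higher and 23.8% lower on both DSS arrays. Of 13 neutrophil markers, 7 were tested, 0 were higher and 2 were lower, Mmp8 and Mpo, with a summed signal of 1228 and 2184 in DSS samples and 1973 and 1767 in untreated samples. Mmp8 and Mpo passed the filter through the untreated arrays alone, so the count of lower neutrophil markers is a description. Without the filter, 0 of the 11 neutrophil markers on the array were higher, against 14.8% of all 18193 genes, and 3 were lower. The share of all unfiltered genes that were lower was not counted. S100a8, the calprotectin subunit, had 80.2 and 883.1 in DSS samples, against 204.4 and 31.1 in untreated samples, while Mmp8 differed by -1.85 and Mpo by -0.99. Of 11 B and plasma cell markers, 7 were tested, 1 was higher, Sdc1, and 1 was lower, Mzb1, with a summed signal of 2512 and 3738 in DSS samples and 2456 and 4172 in untreated samples. Ms4a1, the B cell surface protein, had 66.5 and 235.4 in DSS samples, against 226.3 and 353.4 in untreated samples. Of 6 NK cell markers, 3 were tested with 0 higher and 0 lower, and Ncr1, an NK receptor, had 96.6 and 180.2 in DSS samples, against 36.9 and 348.2 in untreated samples. Of 9 endothelial markers, 3 were tested, 0 were higher and 1 was lower, Stab2, with a summed signal of 794.6 and 996.9 in DSS samples and 1161.6 and 1081.5 in untreated samples. Of 12 markers of colonic epithelium, 11 were tested, 2 were higher, Car1 and Krt8, and 1 was lower, Krt18. Their summed signal was 16576 and 13714 in DSS samples and 14823 and 10123 in untreated samples. Of 8 fibroblast and smooth muscle markers, 5 were tested, 0 were higher and 1 was lower, Des. Of 5 eosinophil markers, 0 were tested. The parts of these cells in the Fc receptor values were not tested.

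Mast cells and basophils carry the complete IgE receptor, whose alpha chain is encoded by Fcer1a and beta chain by Ms4a2. Fcer1a had 35.7 and 82.5 in DSS samples, against 70.3 and 35.7 in untreated samples, below the median of every array. Both Ms4a2 probe sets were also below the median of every array, so neither chain was tested. Of 12 mast cell and basophil markers, 7 were tested, 3 (42.9%) were higher on both DSS arrays, against 17.2% of all genes, and 1 was lower, against 23.8%, with a summed signal of 3332 and 3052 in DSS samples and 1674.9 and 2012 in untreated samples. Kit, the stem cell factor receptor, led this sum with 1967 and 1941.8 in DSS samples, against 750.9 and 798.1 in untreated samples, a log2 difference of 1.30. Its other probe set, 1415900_a_at, gave -0.58 with overlapping groups. Hdc, which makes histamine, differed by 2.17 and the basophil protease Mcpt8 by 1.90, while the mast cell protease Mcpt4 differed by -1.74. The other Hdc probe set, 1451796_s_at, stayed below the median of every array and was lower on both DSS arrays (-0.61). Hdc and Mcpt8 had untreated values below the array medians and passed the filter through the DSS arrays alone, so the count of 3 is a description. Without the filter, 3 of the 12 markers were higher on both DSS arrays, against 14.8% of all 18193 genes, and 2 were lower. For lower genes, the share without the filter was not counted. The protease Cpa3 had 300.1 and 197.0 in DSS samples, against 65.5 and 378.4 in untreated samples. None of these passed limma.

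Several receptors that pair with the Fcer1g chain or signal as it does, other than Fc receptors, were higher on both DSS arrays. Of 10 listed, 7 were tested and 4 were higher on both DSS arrays, against 17.2% of all genes, with a median log2 difference of 2.03 and 0 called by limma. Clec4e and Clec4d passed the filter through the DSS arrays alone, so the count and the median are descriptions. The 4 were C-type lectins of myeloid cells that bind microbial sugars or lipids. Clec4e (Mincle) had 549.8 and 1591.9 in DSS samples, against 90.6 and 20.8 in untreated samples, a log2 difference of 3.60 ± 0.73. Its other probe set, 1420331_at, gave 2.01, with 224.6 and 847.2 in DSS samples, against 202.0 and 27.2 in untreated samples. Clec4d differed by 2.86 ± 0.57 and Clec4n (Dectin-2) by 2.35 ± 0.40, both on probe sets that can bind related transcripts. Clec7a (Dectin-1), which carries a signalling motif of its own, had 1212.8 and 2265 in DSS samples, against 494.4 and 292.6 in untreated samples, a log2 difference of 2.03 ± 0.49. Oscar, Gp6 and Ncr1, the other receptors tested, overlapped between groups.

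The chains that work like or beside Fcer1g were bright, and on their brightest probe sets most overlapped between groups. Tyrobp, encoding the adaptor DAP12 of myeloid and NK receptors, had 18026 and 18428 in DSS samples, against 18772 and 22951 in untreated samples, and was lower on both DSS arrays, the 1 of 4 whose groups did not overlap, against 23.8% of all genes lower, with a log2 difference of -0.19 ± 0.35. Cd247, encoding the zeta chain, had 4627 and 2579 in DSS samples, against 3291 and 4148 in untreated samples on its brightest probe set. With Hcst and B2m, the 4 genes of this kind had a median log2 difference of -0.20, and 0 were called by limma. Under common-median scaling that median was 0.14, while the median of all genes was 0.25.

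Further receptors for antibody were mostly unseparated. Of 11 other Fc-binding genes and relatives, 5 were tested, with a median log2 difference of 0.00474 and 0 called by limma. Fcrl1, an Fc receptor-like protein of B cells, was the 1 gene of the 5 higher on both DSS arrays, against 17.2% of all genes. It had 347.8 and 270.2 in DSS samples, against 265.6 and 266.3 in untreated samples, so the groups barely separated. The other Fcrl1 probe set, 1425062_at, gave 0.14 with overlapping groups. Fcer2a, the low-affinity IgE receptor, had 195.9 and 332.0 in DSS samples, against 221.9 and 292.6 in untreated samples. Pigr, the epithelial receptor that exports IgA, had 1072.2 and 886.2 in DSS samples, against 2134 and 822.9 in untreated samples. Trim21, the cytosolic antibody receptor, had 5154 and 3634 in DSS samples, against 4423 and 2530 in untreated samples.

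The signalling genes downstream of activating receptors did not shift as a list. Of 22 listed, 19 were tested, with a median log2 difference of -0.02 and 0 called by limma. On both DSS arrays 3 (15.8%) were higher, against 17.2% of all genes, and 4 (21.1%) were lower, against 23.8%. Syk, the kinase that activated Fc receptors recruit, had 542.4 and 678.0 in DSS samples, against 231.6 and 179.1 in untreated samples, a log2 difference of 1.44 ± 0.45 (limma adjusted p = 0.649). Its other probe sets were dim and gave differences between -1.08 and 1.21. Zap70, its relative downstream of the T cell receptor, had 9147 and 9010.2 in DSS samples, against 15530.1 and 24322 in untreated samples, a log2 difference of -1.10 ± 0.39 (limma adjusted p = 0.649), on a probe set that can bind related transcripts. The Src family kinase Fgr differed by 0.79 and the lipid kinase subunit Pik3cd by -0.94, each on its brightest probe set. The other Fgr probe set overlapped between groups, and the other Pik3cd probe sets gave differences between -0.60 and 0.22.

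Of 9 inhibitory signalling genes, 8 were tested, with a median log2 difference of -0.20, or 0.14 under common-median scaling, and 0 called by limma. On both DSS arrays 0 were higher, against 17.2% of all genes, and 2 (25%) were lower, against 23.8%. Inpp5d, the phosphatase that Fcgr2b recruits, had 1236.7 and 1609.4 in DSS samples, against 1866.2 and 2228 in untreated samples, a log2 difference of -0.52 ± 0.39. Its dimmer probe set, 1424195_a_at, had 41.6 and 30.9 in DSS samples, against 346.0 and 415.5 in untreated samples. Inppl1, a related phosphatase, had 238.1 and 372.2 in DSS samples, against 566.2 and 887.1 in untreated samples, a log2 difference of -1.17 ± 0.46. Neither gene passed limma (adjusted p = 0.722 for Inpp5d and 0.649 for Inppl1).

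Phagocytic effectors, which act after IgG-coated particles are bound, had a median log2 difference of 0.52 over 12 tested of 15, with 0 called by limma. On both DSS arrays 5 (41.7%) were higher, against 17.2% of all genes, and 1 (8.33%) was lower, against 23.8%. Cybb, the catalytic subunit of the phagocyte oxidase, had 673.5 and 1004.6 in DSS samples, against 342.1 and 223.9 in untreated samples, a log2 difference of 1.47 ± 0.45, and its other 2 probe sets overlapped between groups. Ncf4, a cytosolic oxidase subunit, had 1801.6 and 1484.9 in DSS samples, against 414.1 and 1267.8 in untreated samples. The lysosomal membrane protein Lamp2 differed by 1.28 and the early endosomal GTPase Rab5a by 0.71. Of 8 transcription factors tied to myeloid Fc receptor expression, 7 were tested, with a median of 0.03 and 0 called by limma. Of these 2 (28.6%) were higher on both DSS arrays, against 17.2% of all genes, and 1 (14.3%) was lower, against 23.8%. Irf8 differed by 0.64 and Mitf by 0.62, and Gata2, a factor of mast cells and basophils, by -0.72. The other Irf8 probe set, 1448452_at, gave -0.06 with overlapping groups.

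**Figure D4:**
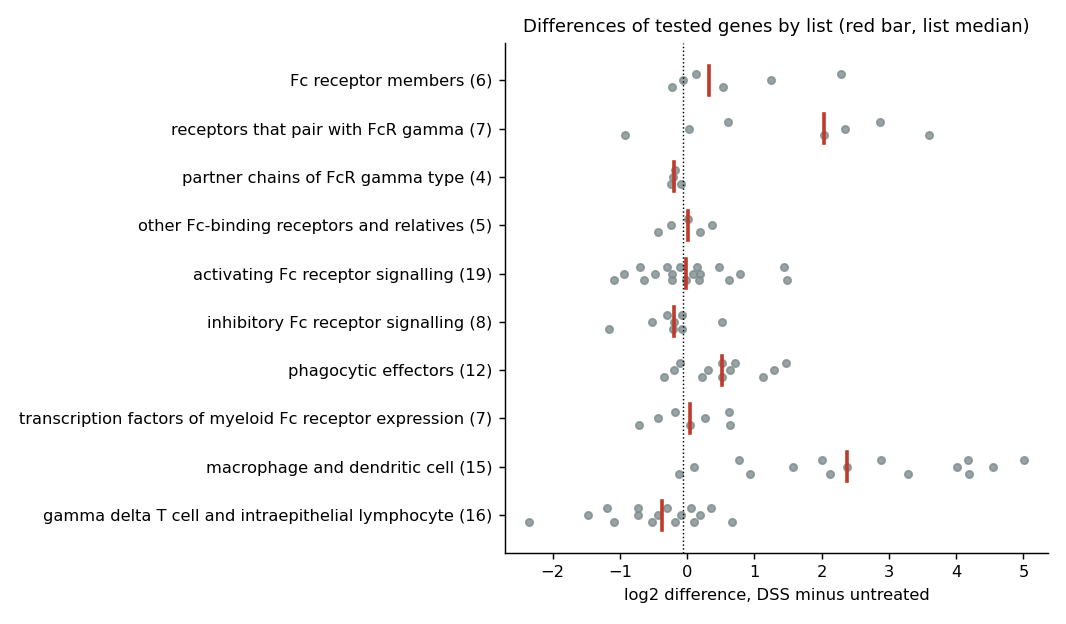
Log2 difference, DSS minus untreated, of every tested gene (grey points, number in brackets) by list, with the list median as a red bar and the median of all 12424 genes as a dotted line. The medians of the receptors that pair with Fcer1g (2.03) and of macrophage and dendritic cell markers (2.38) lie farthest right.

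The genes most like each receptor over the 4 arrays were found by the root mean square difference of centred log2 levels, among 12418 other genes. With 4 arrays and this number of genes, close neighbours are found for any profile. For Fcgr4 the nearest were Gen1, Pla2g7 and Brinp1, at 0.097 to 0.128, and all 3 had untreated values below the array medians. For Fcgr3 they were Plk4, Exosc7 and Rtca, at 0.097 to 0.132. For Fcer1g they were Prr12, Tmem234 and Rhbdl1, at 0.024 to 0.032. For Fcgr1 they were Dusp19, Rrm1 and Tec, for Fcgr2b Cdhr5, Sec62 and Crim1, and for Fcgrt Cstf2, Vps37a and Ankib1, at 0.016 to 0.048 in all. The macrophage markers named above were not among these neighbours. The measure counts the size of a difference as well as its direction. Csf1r, C1qb, Mpeg1, Ly86 and Lyz2 differed by 4.02 to 5.00, and the receptor genes by 2.29 or less. On the probe sets that stood for them, those markers could not have been near, so their absence says nothing about a shared pattern. Other named markers, such as Adgre1 (1.58), had differences within the range of the receptor genes and could have been near. Only the 3 nearest genes were listed, so their absence does not settle a shared pattern either.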

How the data were processed

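Total RNA of sorted cells was isolated with the PicoPure kit and amplified with the RiboAmp HS kit, per the labels' protocols. The authors deposited linear intensities, with 1 value for each probe set on each array. GCOS is named in the submitters' processing notes, with its version and settings not given in the sources used here. Each array had a 2% trimmed mean of 500.0. The number of arrays limits the precision, and no detection calls were used.

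The platform table gave 1 symbol to 34945 probe sets, several to 932 and none to 9224, control probe sets counted as unnamed; 34741 matched the RefSeq table by gene number, which updated 0 symbols. Signals were taken as log2(signal + 32). A probe set was kept if above its array's median on at least 2 of 4 arrays, and the kept probe set of highest mean log2 level stood for its gene. DSS was compared with untreated by limma 3.58.1 in R 4.3.3 (lmFit and eBayes with an intensity trend, 2-sided, Benjamini-Hochberg over all genes, called under 0.05). A second fit over all probe sets, unfiltered, gave the receptors' other probe sets. An exact permutation test over 2 against 2 arrays cannot go below p = 0.333 and was not used. The fit was tested on simulated data.

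Named genes were the receptors, their partners and cell type markers, up to 4 per list with the largest differences among genes whose groups did not overlap, and the 3 nearest profiles per receptor; Oscar, Gp6, Hcst, Fcer2a, Pigr and Trim21 and other probe sets were named with their values known. Receptors and lists were chosen with earlier results of these data known. The 14 alternatives cover the scaling, the pseudocount, the filter, how probe sets are combined, the variance model, a replicate block and each array left out.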

Additional observations from a re-analysis of the deposited data

How the results depend on the processing

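Limma called 0 of the 6 receptor genes under each other scaling, pseudocount, filter, probe set choice and variance model run, and 1, Fcgr4, with the replicate number as a block (log2 difference 2.29, adjusted p = 0.033). The replicate deviations of the 2 groups correlated at 0.05 across genes, so the numbers are not taken as pairing. Leaving out 1 array gave 0 to 2 called receptor genes, with 0 to 1791 of all genes. Over all genes limma called 67 with the block, 3 with probe sets averaged and 1 when signals had to exceed the median on all arrays, where Fcgrt was not tested. The number of receptors higher on both DSS arrays, recounted under each setting after seeing the data, was 3 or 4. The share of all genes that were higher moved more, from 14.8% without the filter to 36.9% without untreated replicate 2. The count was 4 with probe sets averaged, against 16.8% of all genes. It was also 4 without untreated replicate 1 or 2, against 35.4% and 36.9% of all genes.

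Fcgr4 ran from 1.96 to 2.61 without 1 array, Fcgr3 from 0.72 to 1.77, Fcgr2b from -0.36 to -0.10, Fcer1g from -0.77 to 0.63 and Fcgrt from -0.53 to 0.78. Under common-median scaling, which moved the median of all genes to 0.25 from -0.07, Fcer1g was 0.27 and Fcgr2b 0.11, both opposite in sign to the values reported, as was Fcgr2b with its probe sets averaged (1.86). That averaging also took the receptors' median to 1.41.

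Under common-median scaling the list medians were 0.32 for activating signalling, 0.14 for inhibitory signalling and for partner chains, 0.86 for phagocytic effectors and 0.36 for transcription factors. Phagocytic effectors had 0.38 after quantile normalization, and transcription factors -0.20 when signals had to exceed the median on all arrays. Without 1 array the medians ran from -0.40 to 0.21 for activating signalling, -0.39 to -0.10 for inhibitory signalling, 0.17 to 0.75 for phagocytic effectors and -0.17 to 0.34 for transcription factors. The cause was not tested.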
